A study of Homo sapiens with 6 samples.

Results

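The zinc finger genes of human chromosome 19 were compared between PC-3 cells depleted of CdGAP and PC-3 control cells. A gene was a member if it lay on chromosome 19, was protein-coding, had a symbol made of ZNF and a number with or without a letter, and had at least 60 reads summed over the 6 libraries. Of 246 such protein-coding genes, 191 reached that minimum and 55 did not, in count tables of 64253 genes. The rule used the level summed over both groups, so a gene could reach the minimum through only the group where it was higher. ZNF253 did so, with no read in shCdGAP. Others reached it mostly through shCon, among them ZNF850, ZNF493, ZNF506, ZNF577, ZNF583, ZNF223 and ZNF665. These had at most 9 reads in any shCdGAP library, and several are among the strongest falls below. At least 10 reads in every library were held by 181 members.

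RNA sequencing was performed on 6 libraries, of which 3 came from PC-3 cells carrying a CdGAP shRNA (shCdGAP) and 3 from PC-3 cells carrying a control shRNA (shCon). PC-3 is an established human prostate carcinoma cell line, and CdGAP, the product of ARHGAP31, is a GTPase-activating protein for Rac1 and Cdc42. Per the study's methods, shRNAs were delivered by lentivirus, and the CdGAP-depleted cells were selected with puromycin and grown from single cells into clones. A cloning step was not stated for the control cells, so depletion of CdGAP cannot be told apart from differences between a clone and the control cells, a limit that holds for every comparison below. The methods call the 3 samples of a group independent without saying whether they were separate clones or cultures. The paper reports the knockdown for a particular clone, without stating that the libraries came from it. P-values therefore measure only the spread between these libraries.

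Most of these genes encode transcription factors with tandem arrays of C2H2 zinc fingers that read DNA, and many also carry a KRAB box at the amino end. The KRAB box binds TRIM28, which brings the histone methyltransferase SETDB1 and HP1 proteins to the bound site, and the family is best known for silencing retroelements. The genes multiplied by tandem duplication, which left them in dense clusters along chromosome 19 whose bodies themselves carry heterochromatin marks.

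The libraries held between 33182796 and 43154039 counted reads. ARHGAP31 was detected with 1072, 1181 and 926 reads in shCdGAP and 2472, 2557 and 1923 reads in shCon, a log2 fold change of -1.14 (SE 0.0409). The epithelial genes KRT8, KRT18, KRT19 and EPCAM were detected in every library, KLK3 and KLK2 had no read and the leukocyte gene PTPRC had at most 1 read in a library. EPCAM and KRT19 were higher in shCdGAP, with log2 fold changes of 1.35 and 1.04, and their part in the results below was not tested. PECAM1, an endothelial gene, had 96, 261 and 93 reads in shCdGAP and 236, 230 and 181 in shCon, so shCdGAP replicate 2 stood apart from its group at this gene. A gene passed the test at an adjusted p under 0.01 in edgeR's quasi-likelihood test with Benjamini-Hochberg adjustment over all 16439 genes tested, and the fold limit asked in addition for a log2 fold change beyond 1 in either direction. Negative log2 fold changes stand for a lower level in shCdGAP, and whether groups overlap was judged on CPM, the reads of a gene scaled to library size.

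To show the regulatory sequence of genes at both ends of the range of change, the 250 bases upstream of the RefSeq start site (GRCh38.p14) are given 5′ to 3′ on the gene's strand for 3 members that fell strongly and for the 2 members that rose. Capitals mark CpG dinucleotides, the sites of DNA methylation, of which the windows hold 19 in ZNF850, 9 in ZNF493, 17 in ZNF577, 26 in ZNF358 and 26 in ZNF558. The RefSeq start can differ from the gene ends of the count tables.
ZNF850 (fell; chr19:36772808-36773057, minus strand): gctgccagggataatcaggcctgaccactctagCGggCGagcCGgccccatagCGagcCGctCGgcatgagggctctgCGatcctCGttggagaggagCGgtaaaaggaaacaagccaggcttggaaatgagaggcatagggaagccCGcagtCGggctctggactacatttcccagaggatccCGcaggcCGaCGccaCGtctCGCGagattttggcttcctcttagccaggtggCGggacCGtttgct
ZNF493 (fell; chr19:21396883-21397132, plus strand): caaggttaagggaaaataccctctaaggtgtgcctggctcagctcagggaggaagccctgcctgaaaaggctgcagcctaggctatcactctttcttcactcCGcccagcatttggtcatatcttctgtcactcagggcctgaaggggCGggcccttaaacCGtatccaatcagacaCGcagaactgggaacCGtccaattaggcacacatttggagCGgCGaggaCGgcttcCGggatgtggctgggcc
ZNF577 (fell; chr19:51887952-51888201, minus strand): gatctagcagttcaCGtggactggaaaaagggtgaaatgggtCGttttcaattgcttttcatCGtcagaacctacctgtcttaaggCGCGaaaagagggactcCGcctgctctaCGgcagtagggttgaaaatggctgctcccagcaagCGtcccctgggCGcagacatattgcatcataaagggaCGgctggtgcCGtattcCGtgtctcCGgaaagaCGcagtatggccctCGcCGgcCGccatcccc
ZNF358 (rose; chr19:7515853-7516102, plus strand): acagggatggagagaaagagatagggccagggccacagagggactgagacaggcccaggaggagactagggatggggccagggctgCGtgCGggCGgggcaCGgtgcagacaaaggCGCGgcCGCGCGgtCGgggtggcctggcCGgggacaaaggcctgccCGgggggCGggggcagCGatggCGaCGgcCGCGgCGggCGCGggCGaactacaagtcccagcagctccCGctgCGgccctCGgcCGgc
ZNF558 (rose; chr19:8832305-8832554, minus strand): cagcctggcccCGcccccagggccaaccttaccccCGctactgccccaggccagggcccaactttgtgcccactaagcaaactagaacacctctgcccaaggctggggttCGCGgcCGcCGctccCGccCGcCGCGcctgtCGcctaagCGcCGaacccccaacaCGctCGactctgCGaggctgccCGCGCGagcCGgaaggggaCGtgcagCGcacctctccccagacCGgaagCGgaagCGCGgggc

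Zinc finger genes of chromosome 19 were mostly lower in shCdGAP. Of the 191 members, 120 (62.8%) fell, 2 rose and 69 did not pass. Over all genes tested, 22.0% passed as lower and 24.1% as higher. The median log2 fold change of the members was -0.43, with quartiles of -0.84 and -0.17, against a median of 0.01 over all genes tested. A negative sign was seen for 171 members and a positive sign for 20. With the fold limit, 39 members were lower and 0 higher, where 4.19% of all genes tested were lower and 8.56% higher. Without adjustment, 5 members had a higher and 141 a lower level at p under 0.05. The share of all genes at that unadjusted limit is not given here, so these counts have no background. DESeq2 called 2 members higher and 123 lower without the fold limit (23.7% and 23.3% of all genes tested). Without shCdGAP replicate 2, 4 members passed as higher, and so did 30% of all genes tested in that fit. In 141 members all shCdGAP values lay under all shCon values and in 7 above them, against 32.7% and 34.4% of all genes tested. In bulk RNA, fewer cells that express a gene and less RNA per cell cannot be told apart.

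Most of the falls were moderate. Among the 120 members that fell, 38 had a log2 fold change between -0.5 and 0, 43 between -1 and -0.5, 24 between -2 and -1 and 15 below -2. Summed over the 191 members, the levels were 2439, 2350 and 2484 CPM in the shCdGAP libraries and 3162, 3136 and 3174 CPM in the shCon libraries. The groups did not overlap, with means of 2425 ± 68.2 and 3157 ± 19.4 CPM (SD, n = 3 each) and a ratio of 0.768. The median of the members relative to the mean of shCon was -0.41, -0.46 and -0.37 on the log2 scale in the 3 shCdGAP libraries, and between -0.01 and 0.01 in the shCon libraries. The same median over all genes tested stayed between 0.00 and 0.01 in every library.

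**Figure D1:**
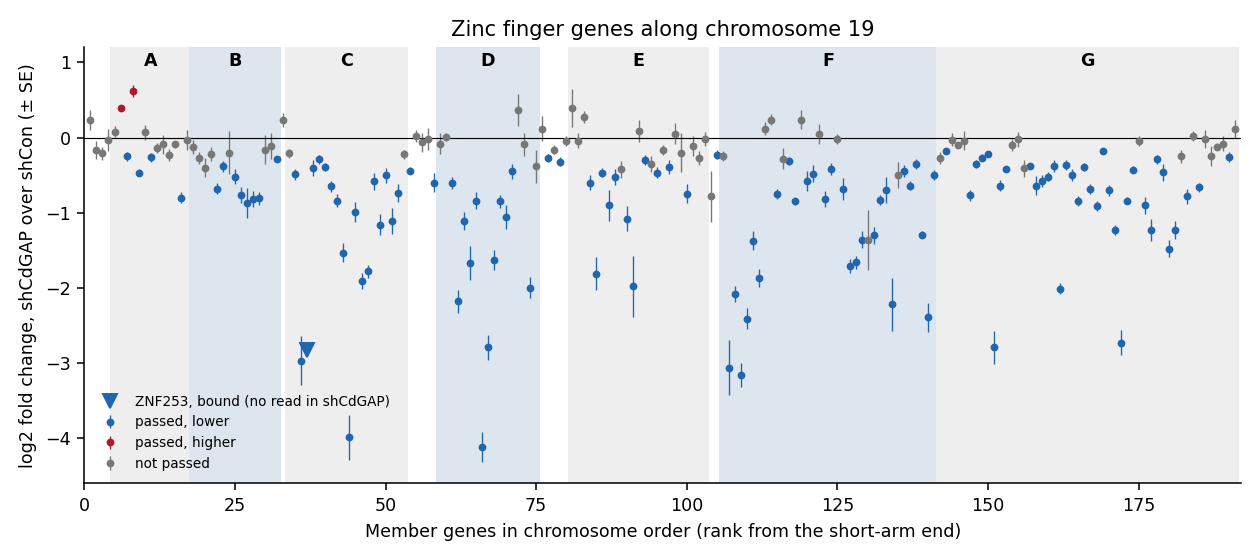
The log2 fold change of each of the 191 members (vertical axis, shCdGAP over shCon, bars are SE of the fit) is plotted against the rank of the gene along chromosome 19, with shaded bands for clusters A to G. Genes that passed as lower (120) occur in every cluster, those beyond -2 lie in clusters C, D, F and G, and the 2 that passed as higher lie in cluster A; the triangle is a bound for ZNF253, which had no read in shCdGAP.

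To ask whether the shift followed position, clusters were built from position alone: sorted along the chromosome, a new cluster began where the next ZNF gene, with or without reads, started over 1 Mb beyond the last. The 7 clusters with at least 5 members, here lettered A to G from the short-arm end, held 174 members, and 17 lay outside. The coordinates below are GRCh38, as in the count tables. The median was negative in every cluster, from -0.09 in A to -0.85 in D, and no member rose in clusters B to G. Beside the counts of each cluster below, 22.0% of all genes tested passed as lower and 24.1% as higher. With the fold limit, 4.19% of all genes tested were lower. Members outside the clusters had a median of -0.16, with 5 of 17 lower.

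Cluster A (chr19:7069444-9793180) held 13 members, of which 4 fell, 2 rose and 7 did not pass, with a median of -0.09. Its other 41 tested genes had a median of -0.10. Both members that rose lay here. ZNF358 (chr19:7515292-7521026, plus strand) had 3497, 4039 and 3110 reads in shCdGAP and 2860, 2863 and 2284 in shCon, a log2 fold change of 0.39 (SE 0.0396, adjusted p = 3.63e-05). ZNF558 (chr19:8806170-8832328, minus strand), a KRAB gene, had 587, 562 and 526 reads against 401, 382 and 300, a log2 fold change of 0.62 (SE 0.0812, adjusted p = 0.000181). The groups of both genes were apart, and both keep their sign and call when any 1 library is left out. The lowest member of the cluster was ZNF562, with 1193, 1048 and 978 reads in shCdGAP and 1959, 2055 and 1549 in shCon, a log2 fold change of -0.80 (adjusted p = 1.98e-05). ZNF846 had 141, 166 and 124 reads against 144, 141 and 147, groups that overlapped.

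Cluster B (chr19:11483427-12640098) held 15 members, all with a negative sign, of which 8 fell, none past the fold limit, with a median of -0.38. Its 10 other tested genes, 3 of them protein-coding, had a median of -0.36. The lowest member was ZNF563, with 27, 28 and 19 reads in shCdGAP and 50, 40 and 43 in shCon, a log2 fold change of -0.87 (adjusted p = 0.00538). This call was lost without shCdGAP replicate 1 or 3, or without shCon replicate 1 or 3 (adjusted p = 0.0148, 0.0198, 0.0222 and 0.0209), with the replicate number as a block (adjusted p = 0.0117) and with DESeq2 (adjusted p = 0.017). The value nearest to 0 was that of ZNF490, with 176, 119 and 143 reads against 158, 185 and 130, groups that overlapped.

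Cluster C (chr19:19668796-24129961), next to the centromere on the short arm, held 20 members, of which 18 fell, 8 past the fold limit, with a median of -0.79. The 12 other tested genes inside it, none of them protein-coding, had a median of -0.72, and 5 of them fell. All 20 members had all shCdGAP values under all shCon values. The 18 that fell were neighbours among the members, an unbroken run from ZNF14 to ZNF726 (chr19:19710471-23945159) with a median of -0.91. Another 17 ZNF genes of the cluster were below the read minimum, 8 of them with no read.

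ZNF253 (chr19:19865886-19894674) had no read in any shCdGAP library and 20, 27 and 17 reads in shCon, at least 7.09-fold lower with a floor of 3 reads per library (adjusted p = 0.000122). ZNF493 (chr19:21397119-21427573) had 2, 5 and 5 reads in shCdGAP and 75, 62 and 57 in shCon, a log2 fold change of -3.99 (SE 0.295, adjusted p = 5.60e-06). ZNF506 had 3, 4 and 7 reads against 40, 43 and 29, a log2 fold change of -2.97 (adjusted p = 6.13e-05). At all 3 genes the groups were far apart, although few reads supported the shCdGAP values. ZNF91, which encodes the KRAB protein that represses SVA retroelements and has the most fingers of the members (31 by pattern), was at 108, 135 and 73 reads in shCdGAP and 257, 242 and 194 in shCon. Its log2 fold change was -1.16 (SE 0.139, adjusted p = 0.000107), and the groups did not overlap. ZNF675, the TRAF6-inhibitory zinc finger gene, had 310, 274 and 261 reads against 396, 435 and 353, a log2 fold change of -0.50 (adjusted p = 0.0023), a call lost without shCon replicate 2 or 3 (adjusted p = 0.0117 and 0.0126). At the edge of the cluster, ZNF101 had 858, 809 and 717 reads against 972, 1005 and 759 and did not pass (log2 fold change -0.21, adjusted p = 0.0178); without shCdGAP replicate 2 it did (adjusted p = 0.00681).

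Cluster D (chr19:36182060-37817300), on the long arm, held 17 members with a median of -0.85. In it 12 members fell, 8 of them past the fold limit, and 5 did not pass. Of the 8 other tested genes inside it, 3 of them protein-coding, 5 fell, and the 8 had a median of -1.63. These include ZFP14, with 19, 28 and 14 reads in shCdGAP and 87, 102 and 75 in shCon, and ZFP82, with no read in shCdGAP and 23, 30 and 22 reads in shCon, at least 8.36-fold lower; both are zinc finger genes that the symbol rule left out.

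ZNF850 (chr19:36714383-36772825) had the lowest fitted log2 fold change of the members with reads in both groups. It had 9, 7 and 7 reads in shCdGAP and 133, 160 and 110 in shCon, a 17.4-fold lower level (log2 fold change -4.12, SE 0.199, adjusted p = 4.26e-07). ZNF420, which encodes the p53 modulator APAK, had 24, 41 and 27 reads against 225, 215 and 187, a log2 fold change of -2.79 (SE 0.165, adjusted p = 1.43e-06). The groups were apart at both genes. ZNF260 had 140, 211 and 102 reads against 737, 734 and 545, a log2 fold change of -2.18 (adjusted p = 4.50e-06), with a wide spread among its shCdGAP libraries that did not reach the shCon values. In the same cluster ZNF146, whose protein consists almost entirely of zinc fingers, did not pass. It had 6695, 6343 and 5655 reads in shCdGAP and 6686, 6667 and 5057 in shCon (log2 fold change 0.01, SE 0.0518, adjusted p = 0.827). ZNF570 had 38, 66 and 48 reads against 42, 39 and 35 and did not pass (log2 fold change 0.37, adjusted p = 0.168).

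Cluster E (chr19:43525497-45076588) held 23 members, of which 11 fell, 3 past the fold limit, and 12 did not pass, with a median of -0.35 beside -0.11 for the 22 other genes tested in it. ZNF223 had the lowest value, with 7, 3 and 7 reads in shCdGAP and 25, 30 and 13 in shCon, a log2 fold change of -1.98 (adjusted p = 0.00246). Its call was lost without shCon replicate 1 or 2 (adjusted p = 0.0113 and 0.0135). ZNF224, a KRAB repressor known for silencing aldolase A, had 420, 474 and 389 reads against 572, 530 and 456, a log2 fold change of -0.30 (adjusted p = 0.0062), lost without shCdGAP replicate 1 or without shCon replicate 1 or 3 (adjusted p = 0.0235, 0.0273 and 0.0257), with the replicate number as a block (adjusted p = 0.0121) and with scaling by library size alone (adjusted p = 0.0111). ZNF575 had 28, 30 and 19 reads against 26, 20 and 12, groups that overlapped.

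Cluster F (chr19:51571298-53580269) held 36 members, of which 27 fell, 13 past the fold limit, and 9 did not pass. Its median was -0.73, and that of its 14 other tested genes, 3 of them protein-coding, was -0.55. KRAB boxes were found by pattern in 35 of the 36. ZNF649 (chr19:51889224-51905040), a KRAB repressor, had 18, 19 and 13 reads in shCdGAP and 169, 156 and 120 in shCon, a log2 fold change of -3.16 (SE 0.157, adjusted p = 4.90e-07). Its neighbour ZNF577 (chr19:51855802-51890950), whose span overlaps that of ZNF649 on the same strand, had 9, 2 and 6 reads against 55, 45 and 43, a log2 fold change of -3.06 (SE 0.361, adjusted p = 9.78e-05). In both the groups were apart.

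ZNF350, which encodes the BRCA1-binding repressor ZBRK1, had 39, 59 and 45 reads in shCdGAP and 272, 258 and 223 in shCon, a log2 fold change of -2.41 (SE 0.143, adjusted p = 1.45e-06). ZNF813 had 28, 24 and 32 reads against 166, 168 and 110, a log2 fold change of -2.39 (adjusted p = 9.36e-06). The imprinted gene ZNF331 changed less, with 964, 1090 and 871 reads against 1428, 1382 and 1259 and a log2 fold change of -0.50 (SE 0.0647, adjusted p = 0.000174). The groups were apart at these 3 genes. ZNF677 had 66, 84 and 79 reads in shCdGAP and 135, 110 and 80 in shCon, with a wide spread within shCon, and did not pass (log2 fold change -0.50, adjusted p = 0.0323; 0.00705 without shCdGAP replicate 2). ZNF841 went the other way, with 457, 530 and 435 reads against 430, 419 and 340, and did not pass either (log2 fold change 0.24, adjusted p = 0.0165; 0.00751 without shCdGAP replicate 2).

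Cluster G (chr19:55476332-58481230), at the end of the long arm, was the largest, with 50 members, of which 35 fell, 7 past the fold limit, and 15 did not pass. Its median was -0.40, and that of its 29 other tested genes -0.30. The lowest value was that of ZNF583, with 9, 9 and 7 reads in shCdGAP and 63, 68 and 43 in shCon, a log2 fold change of -2.79 (SE 0.218, adjusted p = 7.68e-06). ZNF274, whose protein recruits SETDB1 to the 3′ ends of other zinc finger genes, had 270, 374 and 257 reads against 541, 534 and 444, a log2 fold change of -0.78 (SE 0.0978, adjusted p = 0.000146). The groups did not overlap at either gene. ZNF304, a KRAB repressor linked to silencing of tumour suppressor genes, had 1185, 1250 and 1009 reads against 1581, 1619 and 1249, a log2 fold change of -0.38 (adjusted p = 5.83e-05). ZNF446, at the far end, had 269, 219 and 216 reads against 239, 236 and 175, groups that overlapped.

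Outside the clusters, ZNF473, which encodes ZFP100 of the histone pre-mRNA processing machinery, had 926, 918 and 814 reads in shCdGAP and 1078, 1150 and 876 in shCon, a log2 fold change of -0.23 (adjusted p = 0.00741). This call was lost with the replicate number as a block (adjusted p = 0.0157), with scaling by library size alone (adjusted p = 0.013), without shCdGAP replicate 1 (adjusted p = 0.0151) and without any 1 of the shCon replicates (adjusted p from 0.0157 to 0.0309).

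**Figure D2:**
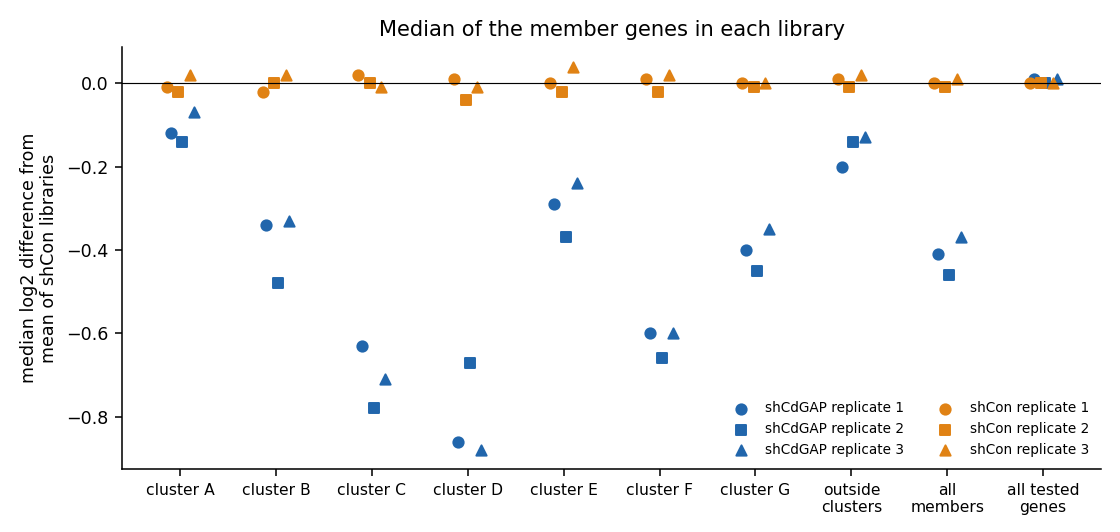
Median over the members of each cluster, over members outside clusters, over all members and over all tested genes (horizontal axis) of the log2 difference between a library and the mean of the shCon libraries (vertical axis); colour marks the group and shape the replicate number. The shCdGAP libraries lie below the shCon libraries in every cluster, by least in A (-0.07 to -0.14) and by most in C and D (-0.63 to -0.88), and all 6 libraries lie at 0.00 to 0.01 over all tested genes.

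Neighbouring members of a cluster differed from each other by a median of 0.42 on the log2 scale over 176 adjacent pairs, against 0.51 over all 2633 pairs within clusters.

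The extremes of level were compared per exon length, as RPKM, the CPM divided by the exon length in kilobases. The mean RPKM of the members ran from 0.0361 to 38.2, with a median of 1.63. The members with the highest RPKM were ZNF358 (43.4 RPKM in shCdGAP and 33 in shCon), ZNF146 (38.2 and 37.8) and ZNF787 (25.4 and 30.6). ZNF787 fell, with 3740, 3927 and 3337 reads against 4827, 4829 and 3538 (log2 fold change -0.27, adjusted p = 0.000788), although the read counts of the groups overlap before division by library size. ZNF121, with 3996, 3838 and 3776 reads against 4837, 4581 and 4085, did not pass (log2 fold change -0.23, adjusted p = 0.0391), but passed without shCdGAP replicate 3 (adjusted p = 0.00508), with the replicate number as a block (adjusted p = 0.0027) and with no filter on low counts (adjusted p = 2.06e-05).

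Members that fell were found at every level of expression. In the lowest group of members by average log2 CPM (-1.65 to 2.32), 36 of 64 fell with a median log2 fold change of -0.75. Of all genes in that range 9.87% fell, and their median was 0.15. In the middle group (2.35 to 3.79), 39 of 63 fell with a median of -0.47, beside 19.6% of all genes. In the highest group (3.79 to 7.30), 45 of 64 fell with a median of -0.32, beside 28.5% of all genes and a median of -0.03. The changes past the fold limit were mostly in genes of low level, with 26, 11 and 2 members in the 3 groups. Of all genes in the same ranges, 341 of 4945, 104 of 1854 and 189 of 7781 were lower past the limit. The share thus declined with level over all genes as well.

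**Figure D3:**
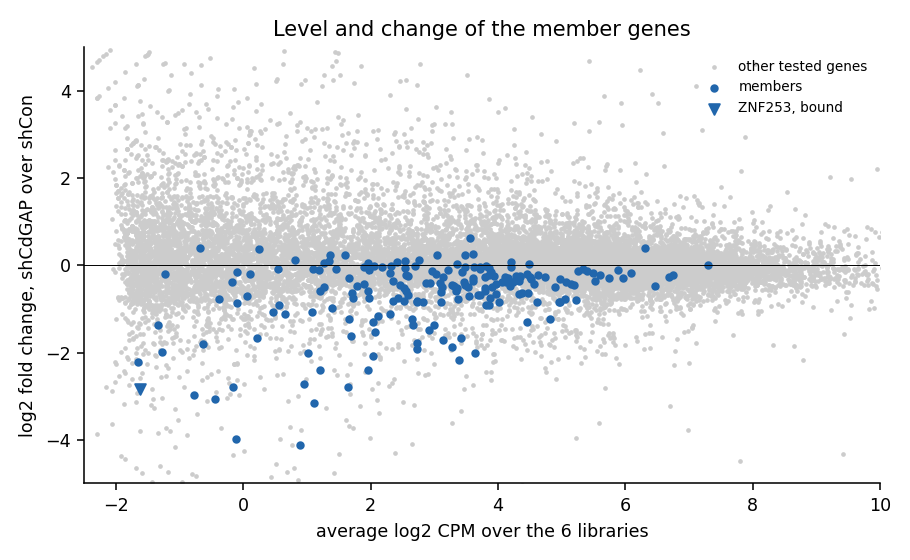
Log2 fold change (vertical axis) against average log2 CPM over the 6 libraries (horizontal axis) for the members in blue and the other tested genes in grey, with points beyond the axes left out. Members with reads in both groups reach down to -4.12 and no member lies further up than 0.62. The triangle is a bound for ZNF253. The spread of the members narrows toward higher levels, where the lowest value in the highest group was -1.29.

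**Figure D4:**
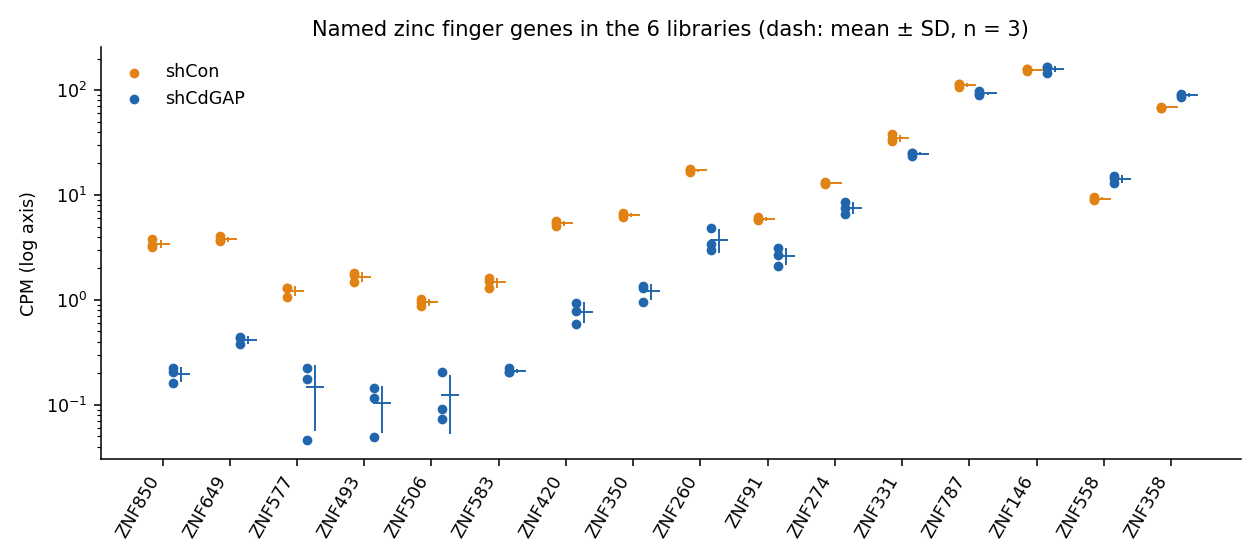
CPM on a log axis for 16 named members in the 3 shCon and 3 shCdGAP libraries, with dashes for the mean and bars for the SD (n = 3). The libraries of the groups are apart by more than their spread from ZNF850 to ZNF787, overlap at ZNF146, and at ZNF558 and ZNF358 the shCdGAP libraries are the higher ones.

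Protein features were read from the canonical transcript of each member in GENCODE. A KRAB box was found by pattern in 154 members, of which 104 fell and 1 rose, with a median log2 fold change of -0.50. In the 37 members without a match, which is no proof that a protein lacks the box, 16 fell and 1 rose, with a median of -0.22. Over all genes tested, 22.0% fell and 24.1% rose. The median log2 CPM was 2.89 in members with the pattern and 3.86 in those without it. Whether this difference in level accounts for the difference in change was not tested. On the other chromosomes, 34 of 87 ZNF genes with the pattern fell and 7 rose (median -0.20), and 34 of 136 without it fell and 18 rose (median -0.07). The number of C2H2 fingers found by pattern ran from 1 to 31. With 1 to 10 fingers 39 of 68 members fell (median -0.33), with 11 to 14 fingers 42 of 66 (median -0.48) and with 15 to 31 fingers 39 of 57 (median -0.47).

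The same comparison was made for related genes elsewhere. Of 223 tested protein-coding ZNF genes of other chromosomes, 68 fell and 25 rose, with a median log2 fold change of -0.11. Of 727 other tested protein-coding genes of chromosome 19, 186 fell and 152 rose, with a median of -0.02. The differences between these sets and the members are descriptions and carry no test.

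Upstream sequence was available for 168 of the 191 members. The median number of CpG dinucleotides in the 250 bases was 16.5 in the members (quartiles 12 and 21) and 11 over 27305 RefSeq genes (quartiles 3 and 23). These RefSeq windows, also the background of the motifs below, were not limited to protein-coding genes with reads, as the members were. The ETS core CCGGAAG, searched on both strands, was in 52 member windows (31.0%) and in 8.82% of all windows, and is present in the printed windows of ZNF493 and ZNF558. The TATA box sequence TATAAA was in 4 member windows (2.38%) and in 11.1% of all windows. The motif of NRF1 was in 2 member windows (1.19%, all windows 1.13%), that of YY1 in 2 (1.19%, all windows 0.359%) and the palindrome bound by ZBTB33 in 1 (0.595%, all windows 0.410%), each searched as 1 exact form on both strands. The member window with the palindrome is the printed one of ZNF850. None of these motifs contains another. Of the members with the ETS core 34 of 52 fell (median -0.42), and of those without it 71 of 116 (median -0.40). Members with CpG counts up to the median fell in 59 of 84 cases (median -0.47) and those above it in 46 of 84 (median -0.33), the 2 that rose among them.

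Genes of the corepressor that KRAB proteins use were also mostly lower, by less. Of 21 genes of the TRIM28 complex and of heterochromatin, 13 fell, 2 rose and none passed the fold limit, with a median log2 fold change of -0.22, beside 22.0% lower, 24.1% higher and a median of 0.01 over all genes tested. TRIM28 itself, on chromosome 19, had 28135, 27196 and 24329 reads in shCdGAP and 34403, 35011 and 26678 in shCon, a log2 fold change of -0.28 (SE 0.0491, adjusted p = 0.00111). SETDB1, the methyltransferase it recruits, had 1378, 1459 and 1186 reads against 1899, 1900 and 1591, a log2 fold change of -0.44 (SE 0.0449, adjusted p = 3.91e-05). The lowest was EHMT1, another histone methyltransferase, with 2805, 2925 and 2288 reads against 4858, 4885 and 3860 (log2 fold change -0.78, adjusted p = 2.69e-07). The HP1 gene CBX5 fell by 0.53 on the log2 scale, while the HP1 gene CBX3 rose by 0.13 and TASOR, of the HUSH silencing complex, by 0.39. The read counts of TRIM28 overlapped between the groups before division by library size.

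Among 10 genes for erasers of histone methylation and for DNA methylation, 4 fell and 2 rose, with a median of -0.12, beside the same 22.0% and 24.1% of all genes tested. UHRF1, which brings DNMT1 to newly copied DNA, fell by 0.94 on the log2 scale (adjusted p = 7.15e-05), and TET2, KDM4C and DNMT3A fell by 0.49, 0.47 and 0.35. KDM4A, a demethylase, rose by 0.25. The methyltransferase gene DNMT3B was the only gene of the list past the fold limit, with 726, 902 and 654 reads in shCdGAP and 386, 360 and 284 in shCon, a log2 fold change of 1.13 (SE 0.0759, adjusted p = 3.09e-06).

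Of the 55 genes under the read minimum, 15 had no read and 40 had 1 to 59 reads, and together they had 209 reads in shCdGAP and 513 in shCon. Only 5 had enough reads to be tested, of which ZNF491, ZNF93 and ZNF470 fell, ZNF433 rose and ZNF540 did not pass. ZNF93, whose protein represses long interspersed elements, had 3, 4 and 7 reads in shCdGAP and 15, 17 and 13 in shCon. ZNF433 had 14, 17 and 10 reads against 5, 3 and 0. ZNF382, a KRAB repressor, had 1, 2 and 1 reads against 3, 5 and 4 and was not tested. Just outside the minimum lay ZNF540, ZNF491 and ZNF93 with 57, 58 and 59 reads in all, and just inside it ZNF665, ZNF253 and ZNF888 with 63, 64 and 81. Of 16 further zinc finger symbols of the chromosome (ZFP, ZSCAN, ZIM, ZIK and PEG3), 6 were tested and 3 fell, ZFP14, ZFP82 and ZSCAN5A.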

How the data were processed

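Total RNA of 6 PC-3 libraries, 3 shCdGAP and 3 shCon by their labels, was sequenced. Per gene, raw read counts were deposited by the authors, 1 table for each library. Submitters' processing notes name STAR 2.5.1b on GRCh38 and featureCounts 1.4.6, whereas the table headers name featureCounts 1.6.0 with the Ensembl 77 annotation and strand-specific counting of read pairs. The methods name a single-read kit, so whether a count is a read or a read pair was not settled, and counts are called reads here. Reads with several alignments, or in exons of overlapping genes on the same strand, stay out of such counts, which makes the measurement of near-identical zinc finger copies less complete. An exon overlapped another gene's exon on the same strand in 66 of 191 members (47 fell, median -0.61; in the other 125, 73 fell, median -0.40). Among the named genes this held for ZNF223, ZNF358, ZNF446, ZNF490, ZNF493, ZNF506, ZNF577, ZNF583, ZNF649, ZNF813 and ZNF841.

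Symbols came from a name table (56105 of 64253 genes matched), gene types and proteins from GENCODE 44, and upstream sequences from RefSeq. Counts were tested with edgeR 4.0.16 in R 4.3.3 (filterByExpr, TMM, robust quasi-likelihood test, no covariate, Benjamini-Hochberg over all genes), and the pipeline was tested on simulated data. Levels are CPM on TMM-scaled library sizes. Per-library differences used log2 CPM with a prior of 0.5 CPM. Floors cover counting error only. DESeq2 1.42.0, other scalings and filters, a replicate block and leaving out each library were alternatives. The named genes were the 6 highest and 6 lowest changes among members that passed without overlap of the groups (only 2 passed as higher), those of highest RPKM, the extremes of each cluster, those of widest spread within a group, and members with known roles. Members and lists were chosen with earlier results of these data known.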

Additional observations from a re-analysis of the deposited data

How the results depend on the processing

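The number of members that fell was between 97 and 134 when 1 library was left out (120 with all 6), 123 with DESeq2, 109 with at least 10 reads in every library, and the number past the fold limit was 30 to 41 over the alternatives. The share of all tested genes that fell was 16.8% to 30% over the leave-one-out fits. It was 23.3% with DESeq2 and 22.7% with at least 10 reads in every library. Past the fold limit, 2.61% to 5.38% of all tested genes were lower over the alternative fits. The number that rose was 4 at an adjusted p under 0.05, a limit for which no share of all genes is given here. With 1 library left out it was 2 to 4, beside 17.5% to 30% of all tested genes. The value of 4 came without shCdGAP replicate 2, where ZNF428 and ZNF841 passed as well. With the replicate block 109 members fell and 39 passed the fold limit, beside 20.8% and 4.12% of all tested genes as lower. Libraries of the same number correlated by 0.0306, 0.0499 and 0.0469, each best with its own number, which is a hint from the data and not a pairing in the labels.

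A gap of 2 Mb joined A with B (-0.24) and F with G (-0.50) and gave -0.61 for D and -0.29 for E, and a gap of 0.5 Mb gave -0.14 for A. With at least 10 reads in every library the medians were -0.64 in C, -0.29 in E and -0.67 in F. With 1 library left out the medians ran from -0.15 to -0.09 in A, from -0.97 to -0.86 in D, from -0.42 to -0.31 in E and from -0.77 to -0.72 in F. At the widest gap from the value with all 6 libraries, A was at -0.15 without shCon replicate 2 and -0.14 without shCon replicate 1. Signs near 0 turned for ZNF146 (0.01 with all 6 libraries; -0.03 without shCdGAP replicate 1, -0.02 without shCdGAP replicate 3 or shCon replicate 3, up to 0.06 without shCdGAP replicate 2), ZNF490 (-0.25 to 0.07, the latter without shCdGAP replicate 2) and ZNF846 (-0.13 to 0.09, the latter without shCon replicate 3). The cause of these shifts was not tested. The median of all tested genes moved by at most 0.03 with another scaling. Depth limits the members with few reads in shCdGAP, and 3 libraries per group cannot give an exact permutation p below 0.1 for a single gene.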
